A study of Mus musculus with 6 samples.

Results

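Arginine is used by macrophages along competing routes, and the genes of these routes are described here together with genes that IL-4 and IL-13 control. They were 10 genes (Arg1, Arg2, Nos2, Ass1, Odc1, Il4ra, Il13ra1, Retnla, Chil3 and Mgl2), taken by their symbols from the 26110 genes measured, and all 10 were found. Bulk RNA-seq was done on MHCIIhi cells sorted by flow cytometry from the muscularis externa (ME), the muscle layer of the small bowel, of naive and untreated female C57BL/6 mice. All mice were of the genotype CX3CR1+/GFP, so that in both groups 1 allele of Cx3cr1 carried GFP, and the sort separated 3 libraries of CX3CR1- cells from 3 libraries of CX3CR1+ cells. The ME of 6 mice was pooled per group, and whether each library had a pool of its own is not stated. The p values therefore measure the spread between these libraries, which may in part be technical. The study compared the populations to ask whether the CX3CR1- cells could be the source of cytokines triggered through TLR3 in postoperative ileus, and called both macrophages, whereas the sample labels call them dendritic cells.

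Arginase hydrolyses arginine to ornithine and urea, and ornithine decarboxylase turns ornithine into the first polyamine. Nitric oxide synthase instead converts arginine to citrulline and nitric oxide, and argininosuccinate synthase starts the way back from citrulline to arginine. IL-4 and IL-13 act through a receptor that contains the IL-4 receptor alpha chain and activates STAT6, and mouse macrophages given these cytokines express Arg1, Retnla, Chil3 and Mgl2, a state known as alternative activation.

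The libraries held about 5346381 to 17616761 reads assigned to genes, and the ranges of the groups overlapped. The values are normalized signal, in which 3 reads, the level under which a gene was taken as not measurable, corresponded to 1.39 to 5.36. Cx3cr1 was at 18.9 to 28.5 in CX3CR1- and at 347 to 380 in CX3CR1+ libraries, and the macrophage gene Adgre1 at 383 to 397 and 3390 to 3522, as the sort labels say for Cx3cr1. Mitochondrial genes took 47.5 to 54.9% of the total in CX3CR1- and 18.1 to 21.2% in CX3CR1+ libraries. By the test described below, 12.2% of all tested genes were called higher and 8.15% lower in CX3CR1- cells. The 10 genes of a list of conventional dendritic cell markers were all higher in CX3CR1- cells, with summed levels of 4804 to 5198 against 513 to 590. Itgae, 1 of the 10, had means of 347 against 1.71 and reached the minimum mean of that test through the CX3CR1- libraries. The paper also reported higher CD103 and Flt3 transcripts in CX3CR1- cells. In its flow cytometry very few of these cells carried CD11c or CD103, and in its tissue staining they were positive for the macrophage marker IBA-1. Of 14 markers of resident macrophages, 13 were lower and Lyve1 was higher, and their sum was 13140 to 14484 in CX3CR1- against 60279 to 65821 in CX3CR1+ libraries. In bulk samples, fewer cells of a type and less RNA per cell cannot be told apart.

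The promoters of the effector genes that IL-4 and IL-13 control are shown because these genes, which are named together as markers, had unlike values in these cells. The sequences are those of RefSeq for GRCm38.p6, from 250 bases before to 50 bases after the start site of that table, read 5′ to 3′ on the strand of the gene, at chr16:48842359-48842658 for Retnla (plus strand), chr3:106167515-106167814 for Chil3 (minus strand) and chr11:70130107-70130406 for Mgl2 (plus strand). These start sites are 48842609 for Retnla, 106167564 for Chil3 and 70130357 for Mgl2, and those of Retnla and Mgl2 differ from the gene starts of GENCODE given with the values. Capitals mark a match to TTC, any 4 bases and GAA, the spacing STAT6 is known to prefer, or to TTC, any 3 bases and GAA, the spacing of other STAT proteins. Both patterns read the same on both strands, and the matches do not overlap.
Retnla: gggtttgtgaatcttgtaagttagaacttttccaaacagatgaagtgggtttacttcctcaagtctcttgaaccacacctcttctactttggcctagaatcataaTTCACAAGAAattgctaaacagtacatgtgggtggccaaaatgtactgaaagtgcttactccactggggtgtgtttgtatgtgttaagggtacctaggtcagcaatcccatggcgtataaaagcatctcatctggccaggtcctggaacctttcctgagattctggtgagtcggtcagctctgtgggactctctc
Chil3: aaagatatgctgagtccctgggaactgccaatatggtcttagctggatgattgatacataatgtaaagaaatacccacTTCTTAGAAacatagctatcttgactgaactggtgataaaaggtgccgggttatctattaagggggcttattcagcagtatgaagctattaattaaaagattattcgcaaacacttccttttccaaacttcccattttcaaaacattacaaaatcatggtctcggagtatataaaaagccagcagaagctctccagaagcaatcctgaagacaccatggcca
Mgl2: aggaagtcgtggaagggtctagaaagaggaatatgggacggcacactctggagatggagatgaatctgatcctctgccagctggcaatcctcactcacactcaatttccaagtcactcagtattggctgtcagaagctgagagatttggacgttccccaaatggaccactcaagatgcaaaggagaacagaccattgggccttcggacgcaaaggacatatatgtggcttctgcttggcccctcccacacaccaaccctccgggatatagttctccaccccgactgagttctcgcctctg

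Retnla alone of these held a match with 4 bases between TTC and GAA, TTCACAAGAA, which begins 145 bases before the RefSeq start site. Such a match was present in 6.95% of 32851 promoters of this length. Chil3 held TTCTTAGAA, with 3 bases between, at 172 bases before its RefSeq start site, as did 8.3% of the promoters, and Mgl2 held neither. Of the 10 genes, 7 had an entry, and the promoters of Ass1, Odc1, Il4ra and Il13ra1 held neither pattern. A match describes letters in this window and was not tested as a site.

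Retnla, which encodes the secreted protein RELM alpha, had by far the largest difference of the 10 genes. It lies on chromosome 16 from 48842551 to 48844461 (GRCm38, plus strand). Retnla was at 6920, 9603 and 4955 in CX3CR1- replicates 1, 2 and 3, and at 54.6, 39.4 and 12.7 in CX3CR1+ replicates 1, 2 and 3. Every CX3CR1- library was far above every CX3CR1+ library, and replicate 2 was the highest. The means were 7159 ± 2333 (SD, n = 3) and 35.6 ± 21.2 (SD, n = 3), a 201-fold difference. On the log2 scale the fold change was 7.78 with a standard error (SE) of 0.45, and limma gave a Benjamini-Hochberg adjusted p of 4.02e-06. With each library left out in turn it lay between 7.19 and 8.20. Of the 31-mers of the Retnla transcript, 5.45% also occur in another gene, namely Retnlg.

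Of the 8 genes with a mean value of at least 10, which were tested, 5 were called, by an adjusted p of at most 0.05 together with a log2 fold change of 1 or more in either direction. Of all 17812 genes tested, 20.4% were called, 12.2% higher and 8.15% lower in CX3CR1- cells. Retnla, Arg2 and Ass1 were higher and Il4ra and Il13ra1 were lower. Arg1, Odc1 and Mgl2 did not pass, and Nos2 and Chil3 were under the minimum. The groups were fully apart for 5 of the 8 tested genes, the called ones, against 40.0% of all tested genes. They were also fully apart for Nos2, which was not tested. With any 1 library left out, 4 of the 8 tested genes were called.

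**Figure D1:**
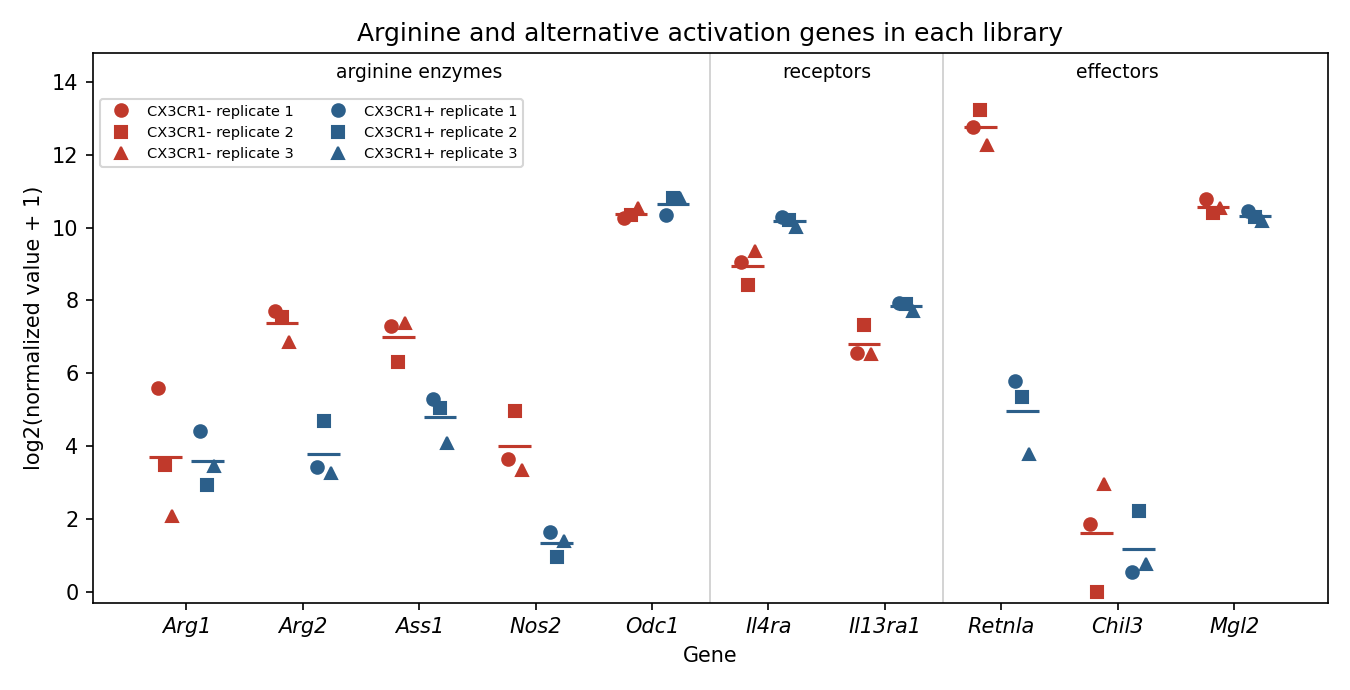
Each point is the log2(normalized value + 1) of a gene in 1 library, red for the 3 CX3CR1- and blue for the 3 CX3CR1+ libraries, and a line marks the mean of each group. Retnla, Arg2 and Ass1 lie higher in all CX3CR1- libraries, Il4ra and Il13ra1 lower, and the points of Arg1, Odc1, Chil3 and Mgl2 overlap.

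The 2 arginases did not go together. Arg2 encodes the mitochondrial arginase and lies on chromosome 12 from 79130777 to 79156301 (plus strand). It was at 209, 186 and 116 in CX3CR1- and 9.71, 24.6 and 8.50 in CX3CR1+ libraries. The groups did not overlap, and CX3CR1- replicate 3 was the lowest of its group. The means were 170 ± 48.5 (SD, n = 3) and 14.3 ± 8.97 (SD, n = 3), an 11.9-fold difference, or 3.59 in log2 (SE 0.44, limma adjusted p = 2.67e-04). Of its 31-mers, 23.6% also occur in other genes and 18.2% in Vti1b. The log2 fold change of Vti1b was 0.73 (adjusted p = 0.0746), which did not pass the test.

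Arg1 encodes the cytosolic arginase of the liver urea cycle, which is also the one induced by IL-4, and lies on chromosome 10 from 24915221 to 24927484 (minus strand). It was at 47.3, 10.1 and 3.21 in CX3CR1- and 20.3, 6.59 and 10.02 in CX3CR1+ libraries. The highest and the lowest value were both in CX3CR1- libraries, replicates 1 and 3, and the groups overlapped. The log2 fold change of 0.11 had a 95% confidence interval from -1.83 to 2.05 (adjusted p = 0.945 from limma). A difference of either sign within that interval is thus not excluded. Without CX3CR1- replicate 1 it was -0.83, and after quantile normalization -0.41. The reads behind these values were few, about 3.2 to 45.4 per library.

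The ratio of Arg1 to Arg2 within a library, as a log2 difference, was 3.48 lower in CX3CR1- than in CX3CR1+ libraries and did not overlap between the groups (p = 0.1 in an exact permutation test, two-sided, which cannot give less with 3 libraries per group, and 0.125 adjusted over 5 ratios). It was -2.12, -4.08 and -4.79 in the CX3CR1- and 0.99, -1.75 and 0.21 in the CX3CR1+ libraries.

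Ass1 encodes argininosuccinate synthase and lies on chromosome 2 from 31470207 to 31520672 (plus strand). It was at 157, 77.9 and 167 in CX3CR1- and 38.5, 31.9 and 16.1 in CX3CR1+ libraries. The groups did not overlap, with CX3CR1- replicate 2 the lowest of its group. The means of 134 ± 48.7 (SD, n = 3) and 28.8 ± 11.5 (SD, n = 3) differed 4.65-fold, or by 2.19 in log2 (SE 0.42, limma adjusted p = 0.00400). Of its 31-mers, 43.1% also occur in the gene Gm5424, so that reads may have been divided between them. No value of Gm5424 was available to set beside that of Ass1. Asl, which encodes the next enzyme of arginine synthesis, was at 66.7 in CX3CR1- and 137 in CX3CR1+ libraries on average, and its log2 fold change of -1.07 had an adjusted p of 0.0512, over the threshold.

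Nos2, the inducible nitric oxide synthase, lies on chromosome 11 from 78920787 to 78960254 (plus strand). It was at 11.5, 30.3 and 9.19 in CX3CR1- and 2.13, 0.93 and 1.60 in CX3CR1+ libraries. All CX3CR1- libraries were above all CX3CR1+ libraries, but 2 of the latter held 3 reads or fewer and the CX3CR1- libraries about 9.2 to 17 reads. Its mean of 9.29 was under the minimum. In a fit with no minimum the log2 fold change was 2.66 (adjusted p = 0.0207 from limma), and the adjusted p was 0.0663, 0.0927 and 0.0695 without CX3CR1+ replicate 1, 2 or 3. With a pseudocount of 10 the log2 fold change was 1.15 (adjusted p = 0.0350), and after quantile normalization 2.05 (adjusted p = 0.0667).

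Odc1 encodes ornithine decarboxylase, the enzyme that starts polyamine synthesis, and lies on chromosome 12 from 17544794 to 17551505 (plus strand). It was at 1227, 1292 and 1489 in CX3CR1- and 1294, 1789 and 1815 in CX3CR1+ libraries. The groups overlapped, since CX3CR1+ replicate 1 was below CX3CR1- replicate 3. The log2 fold change was -0.28 with a 95% confidence interval from -0.68 to 0.12 (adjusted p = 0.310 from limma), and 0.10 after quantile normalization. Of its 31-mers, 31.3% also occur in other genes and 19.4% in Gm7993, which was at 5.36 or less in every library.

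The receptor genes were lower in CX3CR1- cells. Il4ra encodes the IL-4 receptor alpha chain, shared by the receptors of IL-4 and IL-13, and lies on chromosome 7 from 125552120 to 125579474 (plus strand). It was at 530, 340 and 655 in CX3CR1- and 1260, 1182 and 1036 in CX3CR1+ libraries. The groups did not overlap, and CX3CR1- replicate 2 was the lowest library. The means were 508 ± 159 (SD, n = 3) and 1159 ± 114 (SD, n = 3), and the log2 fold change was -1.23 (SE 0.24, limma adjusted p = 0.00406). Without CX3CR1- replicate 2 it was -0.97 (adjusted p = 0.00575), and after quantile normalization -0.96 (adjusted p = 0.0291), both past the adjusted p but not the fold threshold.

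Il13ra1 encodes the chain that pairs with the alpha chain to bind IL-13 and lies on chromosome X from 36112110 to 36171259 (plus strand). It was at 93.9, 161 and 90.7 in CX3CR1- and 242, 236 and 210 in CX3CR1+ libraries. The groups did not overlap, and CX3CR1- replicate 2, the lowest for Il4ra, was here the highest of its group. The means of 115 ± 39.6 (SD, n = 3) and 229 ± 17.4 (SD, n = 3) gave a log2 fold change of -1.04 (SE 0.27, limma adjusted p = 0.0199), just past the threshold. The call was lost without any single library other than CX3CR1- replicate 2, where the log2 fold change lay between -1.10 and -0.89 and the adjusted p between 0.0547 and 0.0788. It was also lost after rescaling to the total without mitochondrial genes (log2 fold change -0.86). The ratio of Il4ra to Il13ra1 within a library did not separate the groups (log2 difference -0.20, exact permutation test, p = 1), and was 0.33 higher in CX3CR1- libraries without CX3CR1- replicate 2.

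**Figure D2:**
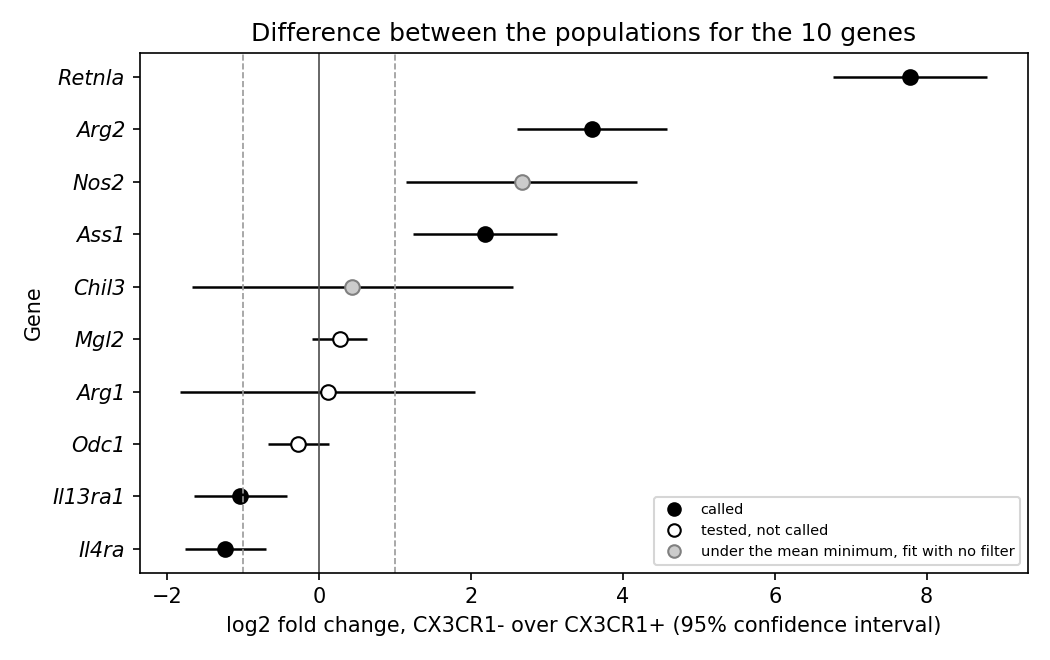
Log2 fold changes of the 10 genes with their 95% confidence intervals, CX3CR1- over CX3CR1+, n = 3 libraries per group, with dashed lines at the fold threshold of 1 in either direction. Retnla, at 7.78, is far to the right, the intervals of Arg1, Odc1 and Mgl2 cross 0, and the grey points of Nos2 and Chil3 come from the fit with no minimum.

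Among the other effector genes, Mgl2 was not called and Chil3 was too low to test. Mgl2, a galactose-binding C-type lectin, lies on chromosome 11 from 70130329 to 70137550 (plus strand). It was at 1777, 1359 and 1484 in CX3CR1- and 1398, 1249 and 1173 in CX3CR1+ libraries, so that both populations expressed it and the groups overlapped. The log2 fold change was 0.27 with a 95% confidence interval from -0.10 to 0.64 (adjusted p = 0.280 from limma). After quantile normalization it was 0.64 (adjusted p = 0.0233), still under the fold threshold. Of the 31-mers of Mgl2, 22.8% also occur in other genes and 19.3% in its paralog Clec10a. Clec10a was at 255, 324 and 231 in CX3CR1- and 107, 72.4 and 84.4 in CX3CR1+ libraries. Its log2 fold change of 1.61 passed (adjusted p = 0.00124), and the log2 ratio of Mgl2 to Clec10a within a library was 1.34 lower in CX3CR1- libraries (exact permutation test, p = 0.1).

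Chil3, the chitinase-like protein Ym1, lies on chromosome 3 from 106147554 to 106167564 (minus strand) and was hardly detected. It was at 2.61, 0 and 6.80 in CX3CR1- and 0.45, 3.61 and 0.69 in CX3CR1+ libraries, with 4 of the 6 libraries at 3 reads or fewer. Retnlb, Retnlg and Chil4 were not analysed here.

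Per length of the longest coding transcript, which allows levels to be compared between genes, Retnla was the highest of the 10 in CX3CR1- cells, at 11950 per kb. Mgl2 followed at 942 and Odc1 at 605 per kb. Arg2 at 119, Il4ra at 96.7 and Ass1 at 79.0 per kb came next, where Il4ra overlapped with both others and Arg2 lay below Odc1 and Ass1 above Il13ra1 without overlap. Il13ra1 at 31.03, Arg1 at 13.7, Nos2 at 4.06 and Chil3 at 2.04 per kb were the lowest. In CX3CR1+ cells, Mgl2 at 779 and Odc1 at 739 per kb overlapped as the highest, above Il4ra at 221 per kb. Retnla, at 59.4 per kb, ranged here with Il13ra1 at 61.8 per kb, and Ass1, Arg2 and Arg1 had lower means of 16.98, 9.995 and 8.34 per kb. Arg1 was thus near the bottom of the order in both populations.

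Around these genes, 8 lists of pathway genes were counted. The lists contain the 10 genes themselves, and in part they overlap with each other and with the marker lists. Of all tested genes, 12.2% were called higher and 8.15% lower in CX3CR1- cells. In arginine synthesis and the urea cycle, 4 of 6 tested genes were higher in CX3CR1- cells and none was lower, with a median log2 fold change of 2.89, against -0.0035 over all genes. Beside Ass1 and Arg2 these were Otc, ornithine transcarbamylase, and Cps1, which makes carbamoyl phosphate in mitochondria of liver and gut. Otc was at 131, 122 and 66.8 in CX3CR1- libraries and held 3 reads or fewer in each CX3CR1+ library, at least 39.4-fold higher when set against the value of 3 reads averaged over these libraries. Cps1 was at least 9.58-fold higher on the same bound, and with both at their bounds the median of the list was 2.72. Otc and Cps1 reached the minimum mean through the CX3CR1- libraries, so that the count and median over the tested genes of this list are a description and no support.

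Arginine uptake and supply of the synthase cofactor tetrahydrobiopterin had 3 genes higher and 1 lower of 10. Slc25a15, the mitochondrial ornithine carrier, was higher by 3.10 in log2 (adjusted p = 1.04e-04). Slc7a2, a cationic amino acid transporter that takes up arginine, was at 83.8, 63.3 and 62.2 in CX3CR1- and 29.0, 35.5 and 19.5 in CX3CR1+ libraries, higher by 1.31 in log2 (adjusted p = 0.0218). Gchfr, the feedback regulator of the first enzyme of the cofactor pathway, was at least 7.97-fold higher, and it too reached the minimum through the CX3CR1- libraries. Slc3a2, the heavy chain of several amino acid transporters, was the lower gene, with a log2 fold change of -1.58.

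In the list of nitric oxide synthases and the enzymes around their inhibitors, 4 of 6 genes were tested (Nos1, Ddah1, Ddah2 and Prmt1) and none was called. Nos2 and Nos3, the endothelial synthase, were under the minimum. Nos3 was at 6.41, 13.1 and 21.4 in CX3CR1- and 0.95, 0.84 and 0 in CX3CR1+ libraries, fully apart and at least 5.05-fold higher. Polyamine synthesis and turnover had 3 lower and none higher of 16, where 20.4% of all genes were called in either direction. Amd1 of this list was higher by 0.91 in log2 (limma adjusted p = 0.0125), under the fold threshold. Smox, spermine oxidase, had a log2 fold change of -1.85, Paox, which oxidises acetylated polyamines, one of -1.75, and Sat1, which acetylates them, one of -1.35. The regulators of ornithine decarboxylase Oaz1 and Azin1 were at 0.08 (adjusted p = 0.785) and -0.51 (adjusted p = 0.0708) in log2 fold change. Of 8 genes that take ornithine to proline or arginine to creatine, only Gatm, the first enzyme of creatine synthesis, was called, at -2.70 in log2 fold change.

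Of 15 genes of IL-4 and IL-13 signalling, 2 were higher and 4 lower, where 20.4% of all genes were called in either direction. The lower genes were Il4ra and Il13ra1, already described above, Irs2 and Grb2. Cish, an inhibitor of cytokine signalling, had a log2 fold change of 1.74, and the kinase gene Jak2 one of 1.55. Grb2, an adaptor of receptor signalling, had one of -1.28. Stat6, with -0.24 in log2 fold change (adjusted p = 0.425), and Il2rg, the common gamma chain, at 0.61 (adjusted p = 0.102), did not pass. Il13ra2 was not analysed here.

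Of 22 effector genes of alternative activation, 7 were higher and 4 lower in CX3CR1- cells, where 20.4% of all genes were called in either direction. After Retnla the largest differences were those of the chemokines Ccl17, with a log2 fold change of 5.69, and Ccl22, with one of 3.89. The 4 lower genes were Mrc1, Cd163, Kdm6b and Cd36, named here after their values were seen. Mrc1 and Cd163 are also among the resident macrophage markers above, and Irf4, among the 7 higher genes, is also among the dendritic cell markers. Mrc1, the mannose receptor, had a log2 fold change of -2.18 and Cd163, a scavenger receptor, one of -1.82. Of 19 effector genes of classical activation, 2 were higher and 6 lower. Il6 had a log2 fold change of 3.31, Tnf one of -2.86 and Fpr2, a formyl peptide receptor, one of -2.94. The median log2 fold change was 0.39 in the alternative and -0.56 in the classical activation list, and -0.25 in that of IL-4 and IL-13 signalling. It was 0.08 for polyamine genes, 0.25 for ornithine and creatine genes, 0.23 for Nos1, Ddah1, Ddah2 and Prmt1 and 0.00016 for arginine uptake.

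**Figure D3:**
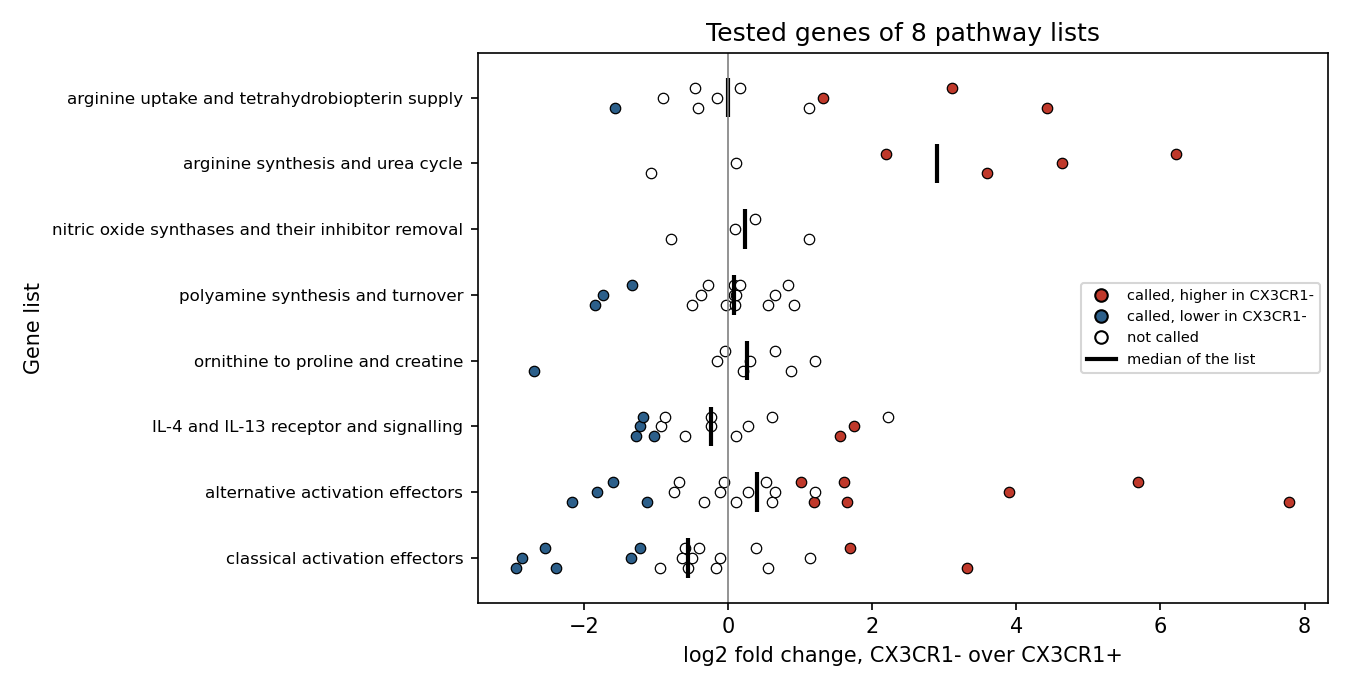
Each point is the log2 fold change of a tested gene, CX3CR1- over CX3CR1+, filled red where called higher and blue where called lower, and the bar marks the median of the list. In arginine synthesis and the urea cycle 4 of 6 genes lie at 2.19 or higher, where 12.2% of all tested genes were called higher. Otc and Cps1 among them reached the minimum mean through the CX3CR1- libraries. In polyamine synthesis and turnover 3 of 16 genes were called, all lower, where 20.4% of all tested genes were called in either direction.

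Markers of several other cell types also differed between the groups. Over all tested genes, 12.2% were called higher and 8.15% lower in CX3CR1- cells. In all CX3CR1+ libraries, 7 enterocyte markers and 2 markers of B and plasma cells held 3 reads or fewer. They reached the minimum through the CX3CR1- libraries, so that these counts are a description and no support. Enterocyte markers were higher in CX3CR1- cells for 15 of 15 genes tested, with sums of 18349 to 33332 against 28.9 to 67.5. All 6 fibroblast markers were higher, with sums of 4117 to 12168 against 181 to 316, and so were 6 of 7 markers of B and plasma cells, with sums of 1594 to 3858 against 60.6 to 92.5. Of 5 serosal cavity macrophage markers tested, 3 were higher, with sums of 214 to 278 against 60.2 to 79.3. Of 6 eosinophil markers 4 had values, with sums of 90.3 to 110 against 13.6 to 16.5. The 2 tested, Siglecf and Il5ra, were higher. Prg2 was under the minimum and held 3 reads or fewer in all CX3CR1+ libraries. Ccr3, also under it, overlapped, at 2.09, 3.58 and 6.98 in CX3CR1- and 2.31, 1.64 and 2.83 in CX3CR1+ libraries. Epx and Ear6 were not analysed here. Of 5 monocyte markers tested 3 were higher, with sums of 2477 to 4659 against 2349 to 2417. Of 11 neutrophil markers 4 had values and 3 were tested, with sums of 234 to 372 against 949 to 1343. Only Csf3r was called, lower, with means of 50.4 against 821. Mmp9 and Cxcr2 were not called, and S100a8, S100a9, Ly6g, Camp, Ngp, Mmp8 and Retnlg were not analysed here. Endothelial markers were higher for 4 of 6, with sums of 844 to 1099 against 348 to 612, and enteric neuron and glia markers for 3 of 6, with sums of 146 to 507 against 91.1 to 97.0. Of 6 markers of T cells and innate lymphoid cells 3 were higher and 1 lower, with overlapping sums of 688 to 828 against 816 to 916, and 1 of 7 smooth muscle markers was higher. The part of these cells in the differences of Retnla, Arg2, Ass1, Otc and Cps1 was not tested, and neither was that of the dendritic cell and macrophage markers in those of Il4ra and Il13ra1.

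**Figure D4:**
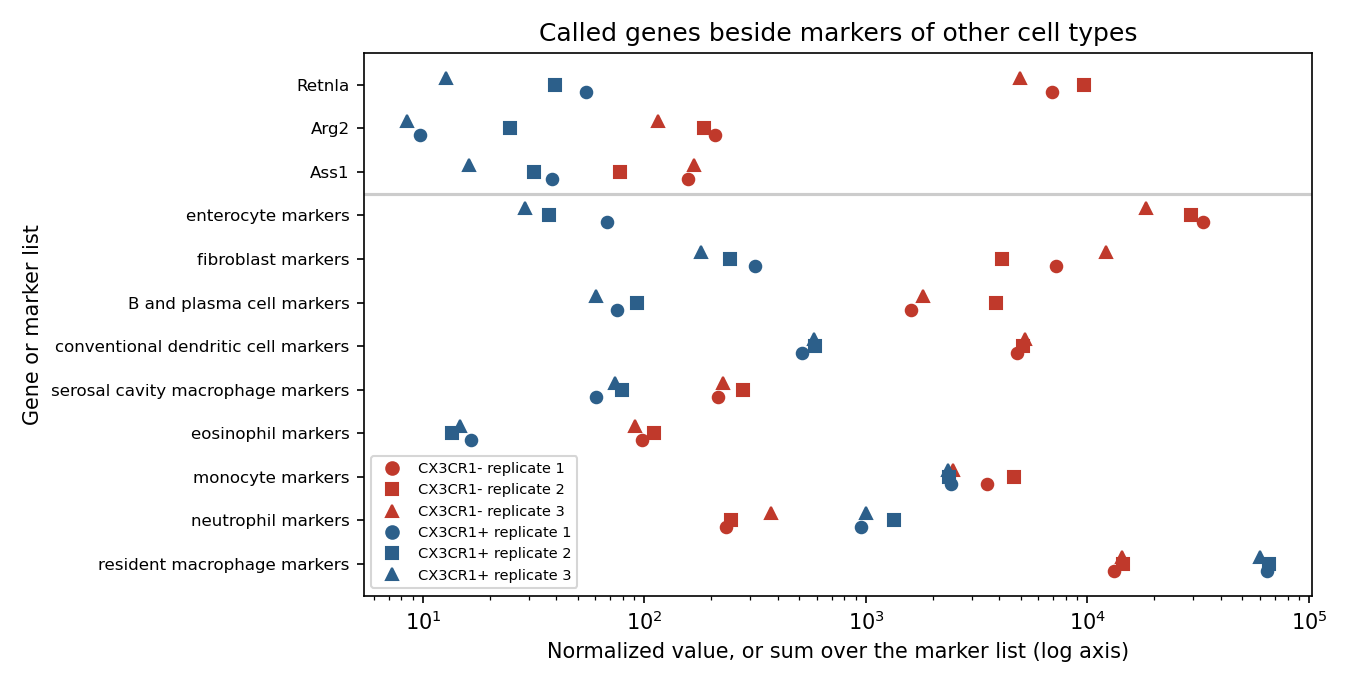
Values of Retnla, Arg2 and Ass1 in the 6 libraries above the summed values of 9 marker lists, on a log axis, red for CX3CR1- and blue for CX3CR1+ libraries. The enterocyte, fibroblast, B and plasma cell, dendritic cell, serosal cavity macrophage and eosinophil sums are higher in all CX3CR1- libraries, and the resident macrophage sum is lower.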

How the data were processed

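RNA of 6 libraries was sequenced by the authors as 75 bp single reads, pseudoaligned with Kallisto to the mouse transcriptome (mm10, GENCODE), summed per gene with tximport and normalized with DESeq2. The deposited values are a normalized signal, not read counts, and were used as such. The approximate reads per library came from the smallest step between low values.

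Genes were kept at a mean of 10 or more (17812 genes), and log2(value + 1) was fitted with limma 3.58.1 in R 4.3.3, with an intensity trend, two-sided, and Benjamini-Hochberg adjustment over these genes. Ratios were tested with exact permutation tests over libraries. The test was checked on simulated data. Positions, transcript lengths and shared 31-mers came from GENCODE for GRCm38 in a later release than that of the authors. Plots used matplotlib 3.10.9.

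The members and lists were chosen with earlier results of these data known. Beside the 10 genes, the text names the called genes with the 3 largest absolute log2 fold changes of each pathway list, fixed paralogs and partners, genes sharing 31-mers with a member, Cx3cr1 and Adgre1. Other genes of the lists are named where a count or sum turned on them. The alternatives tried were other pseudocounts, minimums, scalings and variance settings, a block of adjacent library numbers and leaving out each library.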

Additional observations from a re-analysis of the deposited data

How the results depend on the processing

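Retnla, Arg2 and Ass1 were called under all 16 alternatives, with log2 fold changes of 7.19 to 8.20, 2.91 to 4.04 and 1.83 to 2.54. A mean of at least 50 left 2413 called genes in place of 3628, and leaving out each library gave 2742 to 3862. The median log2 fold change over all genes was -0.146 after quantile normalization and 0.164 after rescaling to the total without mitochondrial genes. Of the called genes 60.0% were higher, against 50.8% and 69.0% under these scalings. After quantile normalization the log2 fold change was -0.41 for Arg1, 0.10 for Odc1, -0.96 for Il4ra, which then missed the fold threshold, 0.64 for Mgl2 (adjusted p = 0.0233, under the fold threshold), and with no minimum -0.033 for Chil3 and 2.05 for Nos2 (adjusted p = 0.0667 from limma). Nos2 was at 1.15 with a pseudocount of 10. Il13ra1 missed the threshold with a pseudocount of 10 (-0.98), without mitochondrial genes (-0.86) and without the intensity trend (adjusted p = 0.0538 from limma). With libraries left out, Arg1 ranged from -0.83 to 0.93, the ratio of Il4ra to Il13ra1 from -0.55 to 0.33, Chil3 from -0.24 to 1.24 and Nos2 from 2.17 to 2.98, the last 2 in fits with no minimum that were added after seeing the data. The counts of the lists were also taken without CX3CR1- replicate 2, likewise added after seeing the data. IL-4 and IL-13 signalling then had 3 genes higher and 3 lower, alternative activation 6 and 4, classical activation 2 and 7, and nitric oxide synthases 1 and 0. Of the markers, 1 of 2 for eosinophils, 2 for monocytes and 4 for enteric neurons and glia were then higher. For T cells and innate lymphoid cells 1 was higher and 1 lower. The other lists kept their counts. The cause of these changes was not tested. Labels and methods give no pairing. A replicate block of adjacent library numbers called 3610 genes and changed no call of the 8 tested genes. The deviations of adjacent libraries correlated at 0.104, 0.038 and 0.014. Nos2 and Chil3 rest on 17 reads or fewer per library.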
